A study of Mus musculus with 15 samples.

Results

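The clustered protocadherin genes encode cell surface adhesion proteins of the cadherin superfamily and lie in 3 neighbouring clusters, Pcdha, Pcdhb and Pcdhg, on mouse chromosome 18. Members were all protein-coding genes of the GENCODE vM1 annotation of mm9 on that chromosome whose symbol starts with Pcdha, Pcdhb or Pcdhg, and each annotated variable first exon was taken as a transcription start site (TSS). This gave 40 first exons of 24 gene models, out of 31032 first exons of 22342 protein-coding genes on the autosomes and X. They comprised 8 alternate Pcdha exons, 21 Pcdhb exons, 6 Pcdhg exons of the A and B types, and 5 exons of the C types (Pcdhac1, Pcdhac2, Pcdhgc3, Pcdhgc4 and Pcdhgc5). The annotation joined 9 Pcdha first exons in the model named Pcdha11 and all 9 Pcdhg first exons in the model named Pcdhgc5, so exons of these models are called here by the RefSeq gene of the same length to the shared 3′ end.

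In the Pcdha and Pcdhg clusters, each variable first exon has its own promoter and is spliced to constant exons shared by the cluster, whereas a Pcdhb gene is a single large exon with its own promoter. Neurons typically express a small set of alternate isoforms per cell, chosen promoter by promoter, and this choice depends on CTCF, cohesin, DNA methylation and distal enhancers; C-type isoforms are used more broadly. Methylation of histone H3 at lysine 4 (H3K4) marks promoters and enhancers: trimethylation (H3K4me3) is typical of active promoters, monomethylation (H3K4me1) of enhancers, and dimethylation (H3K4me2) of both.

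The study asked how the eye transcription factor Pax6 relates to H3K4 methylation in lens chromatin. αTN4 cells are a mouse lens epithelial line transformed with SV40 T-antigen. Control αTN4 cells carried a control shRNA and Pax6 knockdown (KD) αTN4 cells a Pax6 shRNA, both from lentivirus with puromycin selection and, for the KD ChIP, from 1 construct (sh2), and the lens was the whole newborn lens of CD-1 mice at postnatal day 1, a tissue of epithelium and fibre cells. ChIP-seq lists of regions were used for H3K4me2 in lens, control and KD cells, for H3K4me1 and H3K4me3 in control and KD cells, and for RNA polymerase II (Pol2) and Pax6 in control cells. The labels record an antibody against Pax6 for the Pol2 sample and one against RNA polymerase II for the Pax6 sample, and both samples are called here by their titles and source names, on which every Pol2 and Pax6 value rests. Each list stood for 1 sample, counted here as 1 library, so no difference between conditions had a replicate error and none was tested. Names in the control H3K4me2 list hint that it pooled replicates, which the labels do not state. A fold enrichment is the ratio of a peak over its background as listed, a percentile is the rank of that fold within its own list, and depth of the peak libraries is unknown. A first exon without a listed region was not called at that depth, which does not show that the mark was absent. The H3K4me2 lists held 56214 peaks in lens, 66274 in control and 65852 in KD cells. Pax6, the targeted gene, had an H3K4me2 peak at the 99.2 percentile in lens, the 98.7 percentile in control and the 90.3 percentile in KD cells. Its H3K4me3 peak was at the 60.2 percentile in control and the 95.1 percentile in KD cells, and its RNA was not analysed here. By qRT-PCR and immunoblot, the paper reports reduced Pax6 mRNA and protein in the sh2 line, which these marks do not measure. Of 20 lens markers, 19 were annotated, and 17 of these had H3K4me2 at a start in lens and 10 in control αTN4 cells. Of 10 neuron markers, 9 were annotated, and all 9 had H3K4me2 in lens against 3 in control cells (Stmn2, Syt1 and Tubb3). Of 6 glia, blood and endothelium markers, 3 had it in lens and 2 in control cells, with Ptprc and Cd68 listed in neither. These marker counts moved in the same direction as the counts at protocadherin starts that follow, and their part in them was not tested.

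H3K4me2 at the protocadherin starts of the newborn lens was sparse at alternate Pcdha and Pcdhb exons, more frequent at Pcdhg exons and strongest at C-type exons. The starts were at least 4222 bp apart, so windows of 2 kb on either side did not overlap. Within 2 kb of the TSS, 17 of 40 members (42.5%) had a lens peak, against 58.8% of all first exons. By type, lens peaks were listed at 2 of 8 alternate Pcdha exons, 6 of 21 Pcdhb exons, 5 of 6 Pcdhg A and B exons and 4 of 5 C-type exons. The median fold of the marked C-type exons was 26.6, whereas it was 5.52 at alternate Pcdha, 4.21 at Pcdhb and 5.53 at Pcdhg A and B exons. Over all marked first exons the median was 23.0, so the marked C-type exons had folds like those of an ordinary marked promoter and the other types lower ones.

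**Figure D1:**
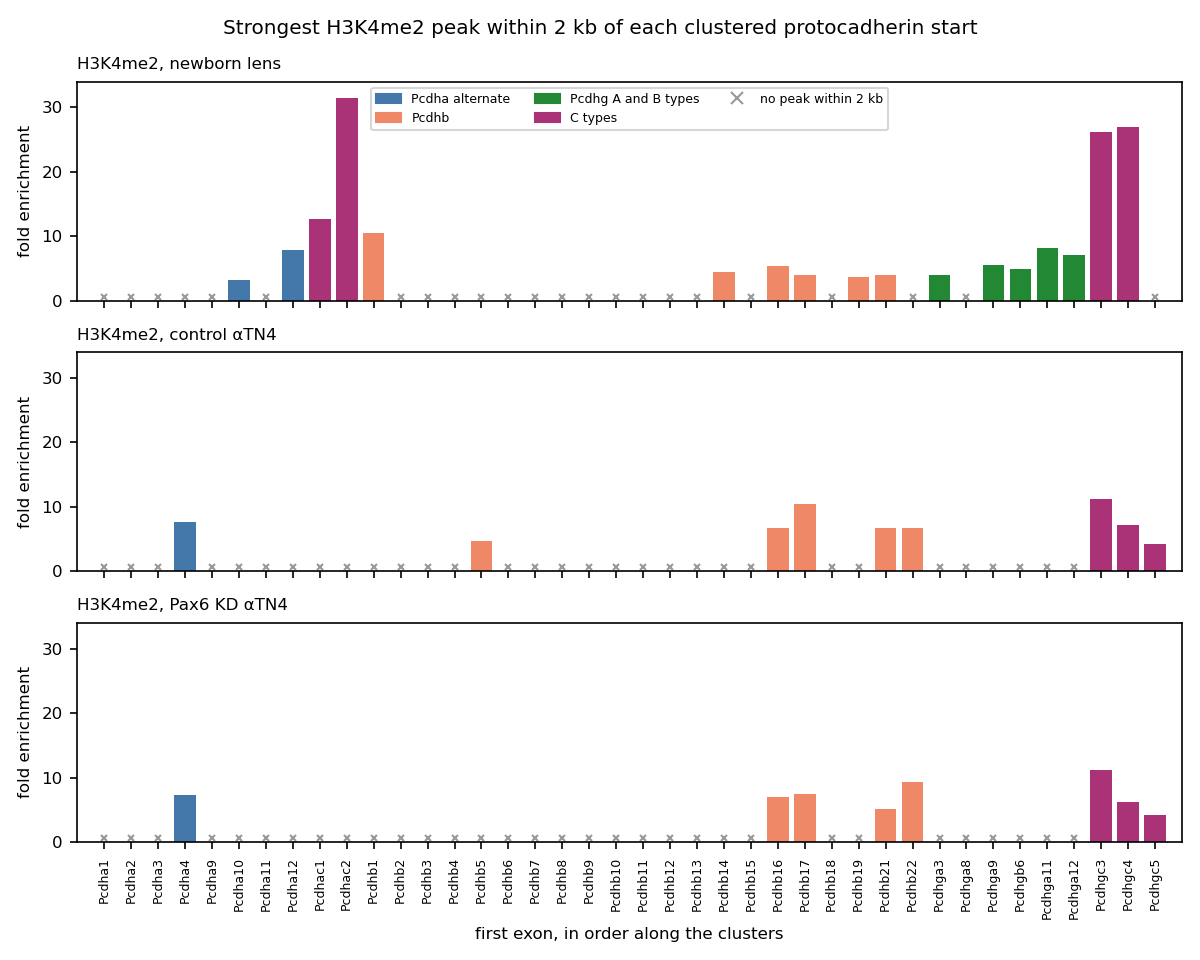
Fold enrichment of the strongest H3K4me2 peak within 2 kb of each of the 40 first exons (vertical axis) in their order along the clusters (horizontal axis), for lens, control and Pax6 KD αTN4 cells, 1 library each. Bars are coloured by exon type and crosses mark exons with no listed peak. The 3 tallest lens bars are the C-type exons Pcdhac2, Pcdhgc4 and Pcdhgc3, and αTN4 bars stay at or below 11.3.

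Among the C-type exons, Pcdhac2 had the strongest lens peak of all members, with a fold of 31.4 over 2062 bp (chr18:37302700-37304761, mm9), at the 98.4 percentile of the lens list. Pcdhac1 had a lens peak of fold 12.6 at the 66.8 percentile. Neither Pcdhac1 nor Pcdhac2 had a peak of any mark within 2 kb in control or KD αTN4 cells. Pcdhgc3 had a lens peak of fold 26.2 over 4322 bp (chr18:37965267-37969588) and Pcdhgc4 one of fold 26.9 over 2485 bp. Pcdhgc3 and Pcdhgc4 were marked in αTN4 cells as well, where the strongest control peak had a fold of 11.3 at Pcdhgc3 and 7.24 at Pcdhgc4. Pcdhgc5 differed from the rest of its type, with no lens peak within 2 kb and a weak peak in control (fold 4.26) and in KD cells (fold 4.17). The 4 C-type lens peaks all covered the annotated start.

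Of the alternate Pcdha exons, which lie in tandem before the C-type pair, Pcdha12 and Pcdha10 had a lens peak, with folds of 7.85 and 3.20. The Pcdha12 peak also covered the start of Gm10545, a protein-coding gene annotated on the opposite strand, so it cannot be assigned to one of them. In αTN4 cells the only marked alternate Pcdha exon was Pcdha4, with a fold of 7.70 in control and 7.29 in KD cells, and it had no lens peak. Thus no alternate Pcdha exon was marked in both lens and control cells. The remaining 5 exons (Pcdha1, Pcdha2, Pcdha3, Pcdha9 and Pcdha11) had no H3K4me2 peak in any of the 3 lists.

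Pcdhb1, the first gene of its cluster, had the strongest Pcdhb lens peak with a fold of 10.5 at the 62.9 percentile and was not listed in αTN4 cells. None of the 12 genes from Pcdhb2 to Pcdhb13 had a lens peak, and 1 of them, Pcdhb5, had a control peak (fold 4.72). Of the 8 genes from Pcdhb14 onwards, 5 had a lens peak and 4 a control peak. Lens folds there were 4.48 at Pcdhb14, 5.32 at Pcdhb16, 3.95 at Pcdhb17, 3.69 at Pcdhb19 and 3.95 at Pcdhb21. Control folds were 6.67 at Pcdhb16, 10.5 at Pcdhb17, 6.67 at Pcdhb21 and 6.67 at Pcdhb22. The part of the cluster from Pcdhb14 onwards held 5 of 6 Pcdhb genes marked in lens and 4 of 5 marked in control cells. This division was not set in advance and falls at the first gene after Pcdhb1 with a lens peak, so it only describes where the peaks lay. Pcdhb16, Pcdhb17 and Pcdhb21 were marked in lens and αTN4 cells alike. A lens peak covered the annotated start at 1 of 6 Pcdhb genes, and the other peaks began inside the gene.

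Among the exon types, the Pcdhg A and B exons had the widest gap between lens and αTN4 cells, since 5 of 6 had a lens peak and none had a control or KD peak within 2 kb. The lens folds were 4.05 at Pcdhga3, 5.53 at Pcdhga9, 4.87 at Pcdhgb6, 8.10 at Pcdhga11 and 7.11 at Pcdhga12, and only Pcdhga8 had no peak. The Pcdhga12 value came from a peak over the end of the first exon that reached its window from the start of the lincRNA Gm16882. A weaker peak of fold 5.0 lay inside the exon, nearer to the TSS. Sparse annotation of this cluster limited the count, so open reading frames of at least 2000 nt on the cluster's strand were located in the mm9 sequence. They covered all 40 members and 14 further places in or just before the Pcdhg cluster, of which 12 had the length to the shared end of a named RefSeq Pcdhg gene. Lens H3K4me2 lay within 2 kb of 8 of these 14, against 58.8% of all first exons. The 8 were Pcdhga1 (fold 3.69), Pcdhga2 (3.95), Pcdhga4 (3.20), Pcdhga5 (5.79), Pcdhga6 (4.48), Pcdhga7 (3.64), Pcdhgb4 (4.48) and Pcdhgb7 (10.7). Control and KD αTN4 cells had a peak at 1 of the 14, Pcdhga7, with folds of 6.90 and 6.60. Counting annotated and located exons from Pcdhga1 onwards together, 13 of 19 A and B exons had lens H3K4me2, against 58.8% of all first exons. This was closer to that share than the 5 of 6 annotated exons were. None of the 4 further Pcdha reading frames and none of the 3 further Pcdhb ones had a peak in any list.

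The members listed with a peak differed in part between lens and αTN4 cells. Lens H3K4me2 without control H3K4me2 was seen at 12 of 40 members (30%), against 11.9% of all first exons. The reverse, control without lens, was seen at 4 of 40 (Pcdha4, Pcdhb5, Pcdhb22 and Pcdhgc5), or 10.0% against 4.08%. Both lists marked 5 members (Pcdhb16, Pcdhb17, Pcdhb21, Pcdhgc3 and Pcdhgc4), or 12.5%, whereas 46.9% of all first exons were marked in both. These shares were not matched for strength, since the median lens percentile was 41.2 at marked members and 85.4 at all marked first exons. Some lens-only peaks ranked low, as at Pcdha10 (2.78), Pcdhb19 (9.76) and Pcdhga3 (17.5), and others high, as at Pcdhac2 (98.4). Whether weak peaks only fell short of the threshold in 1 list was not tested. The 19 members with no peak in lens or control also had none in KD cells.

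In control αTN4 cells, 9 of 40 members (22.5%) had an H3K4me2 peak, against 51.0% of all first exons, and their median fold of 6.67 compared with 17.7 over all marked first exons. H3K4me3 was listed at 3 of 40 members in control cells (7.5%), against 40.7% of all first exons. These were Pcdhgc3 with a fold of 23.4, Pcdhb22 with 4.73 and Pcdhb16 with 3.48. Pol2 was listed at 1 of 40 members (2.5%), against 39.7% of all first exons, and this was Pcdhgc3, with a fold of 11.0 and a peak over the start. Pcdhgc3 was therefore the only member with H3K4me2, H3K4me3 and Pol2 peaks in control cells. The genes Taf7 and Diap1 served as a local comparison, since Taf7, a subunit of the general transcription factor TFIID, lies between the Pcdhb and Pcdhg clusters and Diap1, an actin-nucleating formin, follows the Pcdhg cluster. Both had H3K4me2, H3K4me3 and Pol2, with control H3K4me2 folds of 14.5 at Taf7 and 13.4 at Diap1, higher than at any protocadherin start. Other annotated Diap1 starts had no region in any list. The remaining protein-coding neighbours, looked up only to 100 kb on either side of the clusters, were not marked in control cells either. Slc25a2, inside the clusters, and Gm6756, beside them, had no region in any list. Gm10545 and 3222401L13Rik, both inside, had only a lens H3K4me2 peak (folds 7.85 and 5.33).

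**Figure D2:**
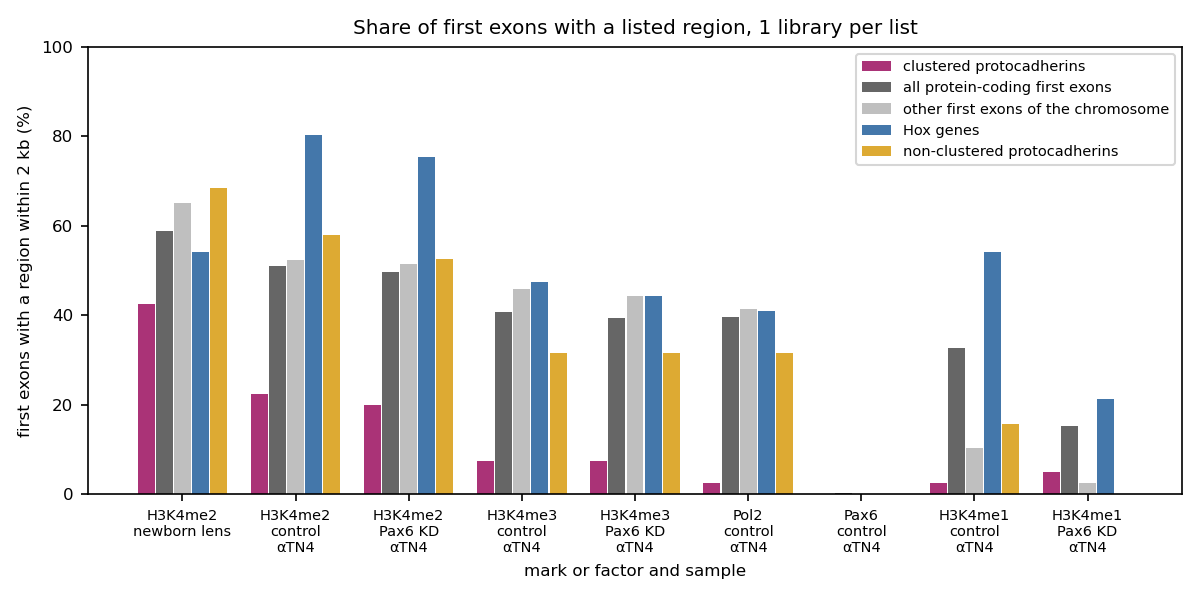
Percentage of first exons with a listed region within 2 kb (vertical axis) in each of the 9 lists (horizontal axis), for clustered protocadherins, all protein-coding first exons, the other first exons of the chromosome, Hox genes and non-clustered protocadherins. The protocadherin clusters are below the share of all first exons in every list, from 42.5% against 58.8% for lens H3K4me2 to 2.5% against 39.7% for Pol2.

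For H3K4me2, the other genes of the chromosome and the non-clustered family members were marked more often. The 691 other first exons of chromosome 18 had H3K4me2 at 65.1% in lens and 52.4% in control cells. The 12 non-clustered protocadherin genes, dispersed relatives with promoters of their own, had H3K4me2 at 68.4% of 19 first exons in lens and at 57.9% in control cells. Counted by gene, a start was marked in 11 genes in lens and in 10 in control cells. Hox genes, another clustered family, which encodes patterning transcription factors, had H3K4me2 at 54.1% of 61 first exons in lens and at 80.3% in control cells. The order was therefore opposite in the Hox and protocadherin clusters, with Hox starts marked more often in αTN4 cells and protocadherin starts more often in lens.

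No member had a Pax6 peak within 2 kb, against 0.209% of all first exons and 0 of the 691 other first exons of the chromosome. The control Pax6 list held 504 peaks in all and none from 100 kb before the Pcdha cluster to 200 kb after the Pcdhg cluster. With so short a list, the absence of a peak at 40 starts is not a result about the clusters.

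In KD cells 8 of 40 members (20%) had H3K4me2, against 49.7% of all first exons. All 8 were also marked in control cells, so 8 of 9 control-marked members (88.9%) kept a peak, compared with 96.7% of all control-marked first exons. Control-marked first exons below the 70 percentile, where all 9 members lay, kept a peak in 82.1%. The peak not listed in KD cells was that of Pcdhb5 (chr18:37480123-37480406), at the 27.9 percentile in control. The rank of the strongest peak was lower in KD than in control cells at 7 of 8 members, with a median change of -7.55 percentile points, against a lower rank at 58.4% of all first exons marked in both and a median of -1.12. Among first exons below the 70 percentile in control cells, 56.1% of those marked in both had a lower rank, with a median of -2.01. Pcdhb21 changed by -21.6 points (fold 6.67 to 5.19), Pcdhb17 by -16.0 (10.5 to 7.46), Pcdhgc4 by -11.1 and Pcdhgc5 by -9.66. Pcdhb22 moved the other way, by 12.3 points (6.67 to 9.37). With 1 library per condition, these shifts cannot be set against a spread between replicates.

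**Figure D3:**
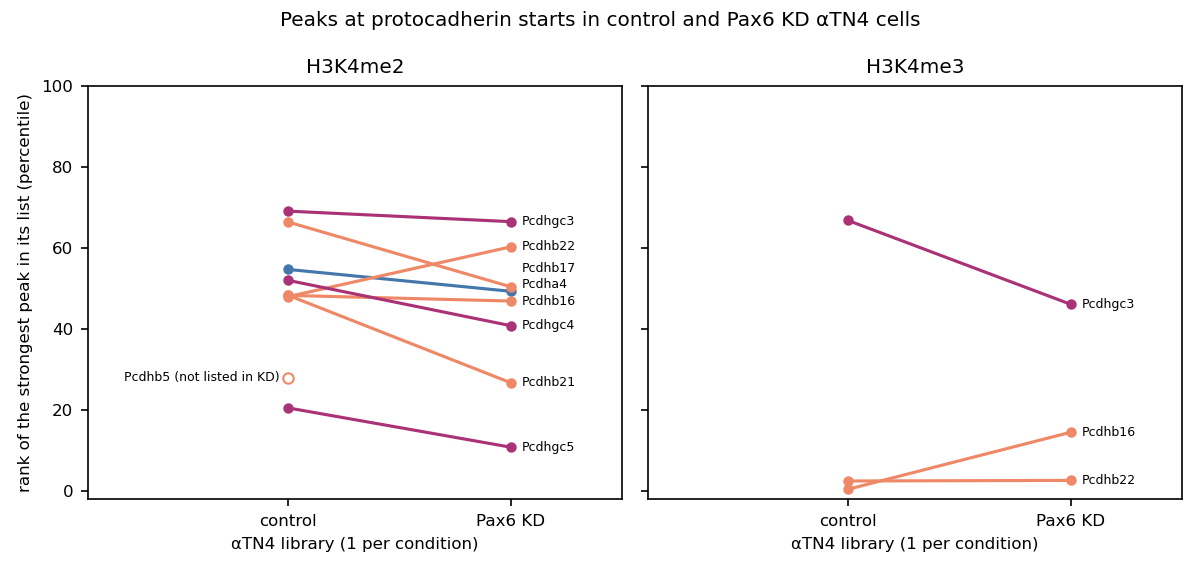
Percentile of the strongest H3K4me2 (left) and H3K4me3 (right) peak within its own list (vertical axis) at each marked member in control and Pax6 KD αTN4 cells (horizontal axis), coloured by exon type as in the plot of folds by exon. Lines join the 8 members with H3K4me2 and the 3 with H3K4me3 in both, and the open circle is Pcdhb5, which had no KD peak. All but 1 of the H3K4me2 lines slope down, and the H3K4me3 line of Pcdhgc3 goes from 66.8 to 46.1.

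H3K4me3 in KD cells was listed at 3 of 40 members, the same exons as in control cells, against 39.5% of all first exons. Pcdhgc3 had a fold of 23.4 in control and 12.3 in KD cells, a change of -20.7 percentile points, compared with a median of -1.70 over all first exons marked in both and of -1.44 over those below the 70 percentile in control cells. Pcdhb16 had a fold of 3.48 in control and 6.15 in KD cells, and Pcdhb22 had 4.73 and 4.43. The H3K4me2 peaks beside the Pcdhgc3 H3K4me3 peak had similar folds in the 2 conditions, with 11.0 and 11.1 for the upstream peak and 10.3 and 10.8 for the one over the first exon, whereas the downstream one had 11.3 in control and 8.44 in KD cells.

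H3K4me1 islands, for which reads were listed, were at 1 of 40 members in control cells, against 32.6% of all first exons, and at 2 of 40 in KD cells, against 15.3%. The control island (chr18:37967001-37970200) lay downstream of the Pcdhgc3 start and held 51 ChIP reads (95% exact Poisson interval 38.0 to 67.1, counting error only), with 23 reads in the library that SICER used as background. It had no counterpart in KD cells. The KD island (chr18:37976601-37979200) lay between Pcdhgc4 and Pcdhgc5 within 2 kb of both starts and held 47 reads (34.5 to 62.5), at the 5.61 percentile of its list by reads. It had no counterpart in control cells. Both islands were within the C-type part of the Pcdhg cluster, and other first exons of chromosome 18 were also low for this mark, with 10.3% in control and 2.46% in KD cells.

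**Figure D4:**
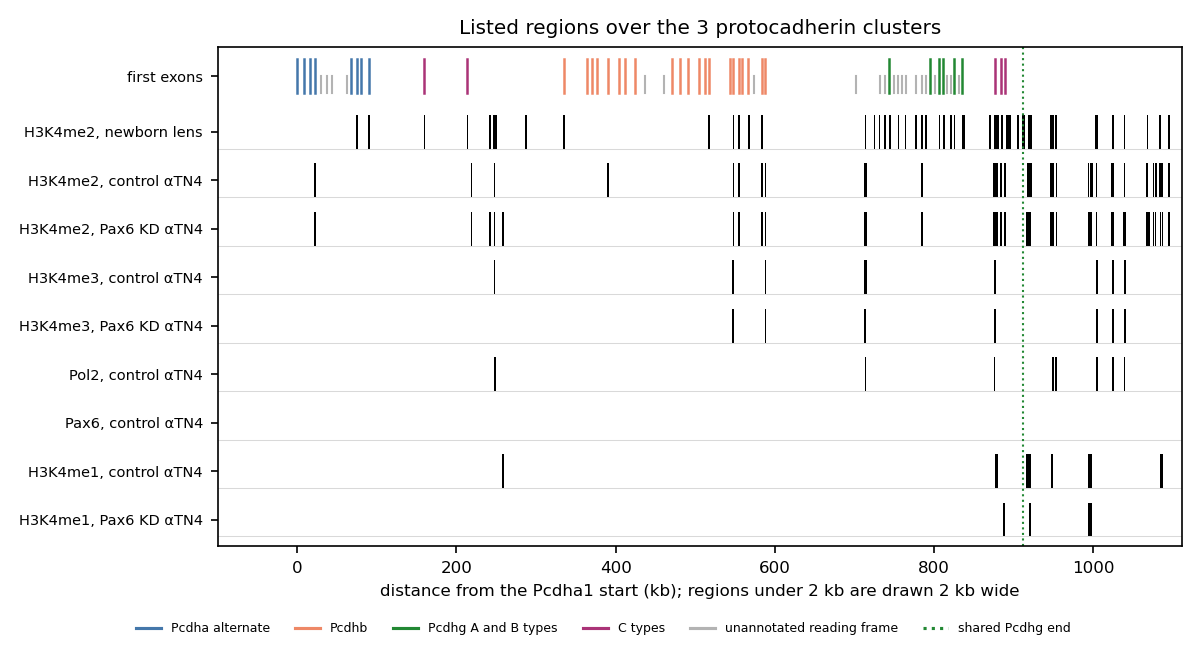
Regions of the 9 lists (rows, black) by distance from the Pcdha1 start (horizontal axis, kb), from 100 kb before the Pcdha cluster to 200 kb after the shared Pcdhg end (dotted line). The top row shows member starts by type and, in grey, long open reading frames with no annotated first exon. Lens H3K4me2 is dense over the Pcdhg cluster, αTN4 rows are nearly empty over its A and B part but not at its C-type exons, and the Pax6 row holds no region.

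Regions more than 2 kb from every protein-coding start were counted as distal over the same span. The lens list held 33 such H3K4me2 peaks, the control list 20 and the KD list 20. Of these, 21 lens, 3 control and 5 KD peaks were centred between the Pcdha1 start and the shared Pcdhg end, and the rest followed the Pcdhg cluster. Of the 21 lens peaks inside the clusters, 8 lay at the Pcdhg reading frames given above. The lens peaks overlapped a control peak in 12 of 33 cases, against 27.4% of all distal lens peaks, and inside the clusters in 3 of 21. The control peaks overlapped a lens peak in 10 of 20 cases, against 19.4% of all distal control peaks.

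In the interval between the Pcdha and Pcdhb clusters, where a known enhancer of Pcdha lies after the constant exons, lens had a peak of fold 16.6 over 883 bp (chr18:37377141-37378023, at the 73.3 percentile), centred 30.3 kb after the shared Pcdha end. It had a small companion of fold 5.0 beside it. Neither was listed in αTN4 cells. Nearer to the Pcdha end, 1.5 kb after it, control cells had an H3K4me1 island of 30 reads (20.2 to 42.8) with no KD island, and KD cells had a small H3K4me2 peak of fold 5.90 there with no control peak. Before the end, within the stretch of Pcdha constant exons, 1 region was shared by all conditions. Its H3K4me2 fold was 15.8 in lens, 12.5 in control and 13.2 in KD cells, and it covered the start of the lincRNA Gm10544 on the opposite strand. Control cells had a Pol2 peak (fold 6.11) and an H3K4me3 peak (fold 5.28) at this start, and KD cells had no H3K4me3 peak there.

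At the other end, lens had a peak of fold 22.8 over 2028 bp (chr18:38000847-38002874), centred 0.3 kb from the shared Pcdhg end and at the 84.8 percentile, with no αTN4 peak. Between the Pcdhgc5 exon and that end lens had 3 further peaks, the strongest of fold 9.21, and αTN4 cells had none. A block that began about 5 kb after the Pcdhg end, inside the 3′ part of the oppositely transcribed Diap1 gene, was marked in every H3K4me2 list. Its strongest peak had a fold of 6.58 in lens, 11.8 in control and 12.3 in KD cells, at the 49.5, 70.9 and 70.3 percentiles, so it ranked higher in both αTN4 lists than in the lens list. The block also held the control H3K4me1 island with the most reads of the span, 141 (119 to 166) over 6000 bp, and a KD island of 63 reads (48.4 to 80.6) over 2800 bp. Read density was 23.5 and 22.5 reads per kb, a log2 change of -0.06, whereas the median over 13763 islands paired between conditions was -0.31 with quartiles of -0.53 and -0.08. The listed island was thus narrower in KD cells, and reads per kb within it were similar. Island densities were not scaled for library depth, and the control and KD islands covered different stretches. Whether the mark itself became narrower or kept its level was not tested.

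Further downstream, peaks inside Diap1 had control H3K4me2 folds of 15.8 (chr18:38038337-38039916) and 6.71 (chr18:38043408-38044205), with KD folds of 17.4 and 14.2. Their ranks were the 82.4 and 48.6 percentiles in control and the 83.3 and 75.4 percentiles in KD cells. In lens the first of these stretches held a peak of fold 21.6 (chr18:38039156-38039944), and the strongest remaining lens peak, of fold 20.8, lay 183.7 kb after the Pcdhg end, beyond Arap3 (chr18:38184567-38185970). The strongest remaining αTN4 peaks lay about 10 kb before that one, with control folds of 9.77 (chr18:38174188-38175302) and 8.51 (chr18:38176700-38177682) and a KD fold of 9.03 (chr18:38173635-38175185). Of 20 distal control H3K4me2 peaks, 18 overlapped a KD peak, against 76.8% of all distal control peaks. Of 20 distal KD peaks, 17 overlapped a control peak, against 89.9%. Distal H3K4me1 islands numbered 5 in control and 2 in KD cells, and 2 of 5 control islands overlapped a KD island, against 47.4% of all distal control islands. Both KD islands overlapped a control one, against 92.5%. The second shared island, also inside Diap1, had 106 reads (86.8 to 128) in control and 77 reads (60.8 to 96.2) in KD cells, and its density changed by -0.57 on the log2 scale. The 2 remaining control islands, of 59 reads (44.9 to 76.1, chr18:38036801-38039400) and 70 reads (54.6 to 88.4, chr18:38173801-38177800), overlapped control and KD H3K4me2 peaks but no KD island.

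Sequence features, which the choice of members did not use, differed among the types. Within 500 bp on either side of the TSS, the median ratio of observed to expected CpG was 0.706 at alternate Pcdha, 0.412 at Pcdhb, 0.635 at Pcdhg A and B and 0.670 at C-type exons, against 0.410 over all first exons. The median GC content was 44.3% for members and 53.1% for all first exons, with the C types highest at 57.4%. High CpG ratios did not go with marking in the alternate Pcdha cluster, where 2 of 8 exons had lens H3K4me2. Members with lens H3K4me2 had a median CpG ratio of 0.606 and members without it 0.434, whereas the values with and without control H3K4me2 were 0.418 and 0.484. The lens gap was not separated from exon type, since Pcdhb exons had the lowest ratio and lens H3K4me2 at 6 of 21. CGCT, the core letters of the conserved element known from protocadherin promoters, was searched on both strands in the 300 bp before each start. It occurred at 39 of 40 members, with Pcdhga12 as the exception, and at 59.8% of all first exons, so its presence did not separate marked from unmarked members.

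Most H3K4me2 peaks at members were centred downstream of the start, as at most marked first exons. In lens all 17 were, by a median of 278 bp, against 71.5% of all marked first exons. In control cells 8 of 9 were, against 63.6% of all marked first exons. In KD cells the share was 5 of 8 (62.5%), near the 63.1% of all marked first exons. The exceptions were C-type exons. For 11 of the 40 members the annotated start coincided with the start of the reading frame, so the true start may lie further upstream there.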

How the data were processed

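Lists of ChIP-seq regions were analysed, 1 library per list. Per the paper's methods and the labels, Bowtie alignments to mm9 went into MACS2 for peaks and into SICER for H3K4me1 islands, and blacklisted regions were removed. In the MACS2 lists the authors deposited a fold enrichment (ratio) and the −log10 of the q-value of each peak. For each SICER island, a count of ChIP reads, a count of background reads, a fold, a p-value and an FDR were deposited. Handling of reads that match several places, which could matter for these similar genes, is not given in the sources used here. Names in the control H3K4me2 list hint that it pooled replicates.

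Transcripts of a gene with overlapping first exons, or starts within 500 bp, were joined, and the 5′-most start was used. The plan counted annotated genes. First exons were used in their place, because 2 gene models join many of them, and counts of the 24 gene models are given with the other settings. RefSeq names were matched by length within 300 bp. Every member with an H3K4me2 or H3K4me3 region was to be named, with C types in any case, and distal regions of highest fold. A region counted when at least 1 bp lay within 2 kb of a start. The strongest region was the one of highest fold (most reads for islands). Region assignment was tested on simulated data. No test between conditions was made. Members and gene lists were chosen with earlier results of these data known. RNA-seq and input libraries were not analysed here. Python 3.11.15, NumPy 2.4.6, pandas 2.3.3 and SciPy 1.17.1 were used.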

Additional observations from a re-analysis of the deposited data

How the results depend on the processing

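Of 104 counts under other settings, 84 were within 1.5 times the reported count. With gene models in place of first exons (5′-most start), H3K4me2 was at 7 of 24 in lens, 5 in control and 4 in KD cells, Pol2 at 0, and H3K4me1 at 0 in control and 0 in KD cells. With any start of a gene model, the lens count was 8 and the KD H3K4me1 count 1. A fold of at least 5 left 10 lens H3K4me2 members and 1 control H3K4me3 member. Within 5 kb, H3K4me3 was at 5 members in control and 5 in KD cells and H3K4me1 at 2 in control cells. Within 1 kb, H3K4me1 was at 1 member in KD cells, and islands that contain the start itself were 0 in control and 1 in KD cells. Counting distal regions only between the first and last member gene left 3 control and 5 KD H3K4me2 peaks, and 1 control and 0 KD H3K4me1 islands. Under every setting tried, the lens H3K4me2 count at starts was above the control count and the KD count was no higher than the control count. The gene-model counts with the 5′-most start, any start of a first exon, reading frames and the distance from non-coding starts were settings chosen after seeing the data. The division of the Pcdhb cluster at Pcdhb14 was not planned either. No paired analysis was possible because each condition has 1 library. Depth of the peak libraries is unknown, so depth and sample cannot be told apart in any difference between lists.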

Other observations

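Genes known to act on the protocadherin clusters were looked up in the same lists. Of 13 names, 12 were annotated, and all 12 had H3K4me2 at a start in lens, control and KD cells and H3K4me3 in control and KD cells. They include Ctcf, the insulator protein that binds protocadherin promoters and enhancers, with H3K4me2 percentiles of 90.9 in lens, 84.1 in control and 80.8 in KD cells, and Smc3, a cohesin subunit, with 97.7, 90.5 and 93.0. Smchd1, a repressor of the clusters, had 92.9, 93.9 and 94.3. Pol2 was listed at 11 of 12, the exception being Dnmt3b, a DNA methyltransferase that methylates protocadherin promoters, whose H3K4me2 percentile was 98.1 in lens, 93.3 in control and 95.0 in KD cells. Counted by first exon, 17 of 20 (85.0%) had H3K4me2 in each of the 3 lists. The shares of all first exons were 58.8% in lens, 51.0% in control and 49.7% in KD cells. H3K4me3 was at 17 of 20 in control and KD cells, against 40.7% and 39.5%, and Pol2 at 14 of 20, against 39.7%.

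Among the non-clustered protocadherins, Pcdh10 had an H3K4me2 fold of 34.8 in lens against 11.6 in control and 9.03 in KD cells, and Pcdh15 had 29.5, 4.38 and 3.82. Pcdh1, Pcdh9, Pcdh11x and Pcdh17 followed the same order of folds. Pcdh19 did not follow this order, with 15.4, 17.7 and 18.2. Neither did Pcdh7, Pcdh18 and Pcdh20, with control folds of 14.6, 16.4 and 6.33 and KD folds of 15.6, 19.4 and 8.33. The median fold over all marked first exons also differed, at 23.0 in lens, 17.7 in control and 19.1 in KD cells. Pcdh17 had the highest Pol2 fold of the 12 non-clustered genes, 44.0, in control cells.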
